A study of Mus musculus with 26 samples.

Results

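Fibroblasts labelled Prrx1-positive (PPF) were compared with Prrx1-negative fibroblasts (PNF) from the ventral skin of mice at postnatal day 30 (P30), in all 8 P30 libraries among the 26 samples of the series (24 bulk libraries and 2 single-cell pools). The members were chosen by their labels: 6 libraries, A to F, are titled PPF P30 and 2, A and B, are titled PNF P30. Both groups come from the Prrx-Cre strain, their labels name no wound or agent, and the fibroblasts of both were isolated by flow sorting after a 60 min digestion at 37 °C with collagenase IV. Neither the gate that separated PPF from PNF nor a reporter allele is given in the sources used here, and the labels do not say whether libraries of 1 group came from separate animals, whether animals were pooled, or the animals' sex. The p-values below therefore measure the spread between libraries, which may be technical. The study asked how the Prrx1 lineage of the ventral dermis differs from the other fibroblasts of the same skin.

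Prrx1 encodes a homeodomain transcription factor of limb bud, craniofacial and ventral body wall mesenchyme. A Cre driven by Prrx1 regulatory sequence is commonly used to mark the descendants of that mesenchyme, so that a cell can carry the mark after the gene itself has fallen silent. Dermal fibroblasts are usually divided into papillary cells beneath the epidermis, reticular and fascia cells below them and the dermal papilla of the hair follicle, which differ in Wnt signalling, matrix output and surface proteins. All of them build matrix from fibrillar collagen, elastin and proteoglycans, and remodel it with metalloproteinases and their inhibitors.

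The libraries were uneven, and 2 of them held some transcripts at the level of the earlier ages. Counts in genes were 4264657 in PNF A, 17190154 in PNF B and 4591721 to 12042400 in the 6 PPF libraries. PNF A had a count for 6508 genes, against 10935 to 15963 in PPF and 18995 in PNF B, and 60.6% of the 15559 genes tested were at 0 in PNF A against 4.6% in PNF B. Erythroid genes took 46.8% of the counts of PNF A and 1.79% of those of PPF A, against 0.0507% to 0.292% in the other 6 libraries, and 43.3% of PNF A was the adult beta globin Hbb-bt alone.

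Of the embryonic and fetal transcripts examined, some were high in the libraries titled PNF P30 A and PPF P30 A and others were not. Embryonic beta globin, Hbb-y, stood at 25480 CPM (counts scaled to library size and TMM factor) in PNF A and 139.7 in PPF A, at 1.33 in PPF C and at 0 in the other 5, while the highest of the 16 libraries of the embryonic and newborn ages had 1400. The fetal growth factor Igf2 was at 171.0 CPM in PNF A and 28.49 in PPF A, within the 15.91 to 290.1 of those earlier libraries, and between 0 and 0.983 in the other 6. Igf2bp1, an RNA-binding protein of fetal tissue, showed the same order, with 28.28 and 23.77 CPM in these 2 libraries and at most 0.965 in the others. Peg3 was at 517.2 and 484.4 CPM in PNF A and PPF A, within the earlier 404.4 to 1018, and at most 299.7 in the others. H19 was at 7.836 and 1.278 CPM, and at most 0.332 in the others. Plagl1 was at 214.0 CPM in PNF A, within the earlier 161.8 to 1029, and at 99.41 in PPF A, below it. Igf2bp3, of the Igf2bp1 family, was at 7.496 and 3.705 CPM in PNF A and PPF A. These values were far below the 27.91 to 95.74 of the earlier libraries and near the 5.477 of PNF B. The imprinted genes Mest and Cdkn1c were at 0 in PNF A, against 0.1498 to 8.39 and 2.009 to 13.89 in the earlier libraries. In PPF A they were at 2.044 and 10.22, within those ranges. Mest was also within its range in PPF B, C, D and F and in PNF B, at 0.332 to 2.528. Cdkn1c was also within its range in PPF C, E and F, at 3.645 to 4.506. The proliferation gene Mki67 was at 149.2 CPM in PNF A, within the 38.9 to 508.4 of the earlier libraries, and at 11.12 in PPF A, below them. Top2a, another gene of dividing cells, was below the earlier range of 39.41 to 253.4 in both, at 0 in PNF A and 23.26 in PPF A. The complement genes C3 and C4b were at 0 in PNF A. In PPF A, C3 was at 177.6 CPM, against 972.6 to 1929 in the other 6, while C4b was at 265.3, above PPF E and F (129.0 and 140.9) and above the highest earlier library (109.9). Dcn, a matrix proteoglycan, was at 2115 CPM in PPF A, within the range of the other PPF libraries and above the earlier maximum of 875.9, and at 212.6 in PNF A. These genes were chosen after their values were seen, and why they stand apart was not tested.

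The libraries also differed in sex-linked RNA. Xist, the RNA of the inactive X chromosome, was at 1132 and 1033 CPM in PPF E and F, where the Y-linked Ddx3y was at 0. It was at 0 in PPF C and D, where Ddx3y was at 60.43 and 13.9. PPF B and PNF B held both, with Xist at 152.0 and 152.5 and Ddx3y at 102.9 and 95.54. PPF C and D resembled each other (Pearson r of log2(CPM + 1) across genes 0.909), as did E and F (0.925), against 0.822 to 0.89 for the other PPF pairs. The chi-square of their counts was 24.2 and 30.3 per degree of freedom, against 151 to 379 for the other PPF pairs. Amplified libraries without molecular identifiers can exceed counting noise as technical repeats too, so whether each pair came from 1 source is not known. They were kept as separate replicates because the labels list them as separate samples. With each pair summed, 0 genes were higher and 1, Cpa3, was lower.

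**Figure D1:**
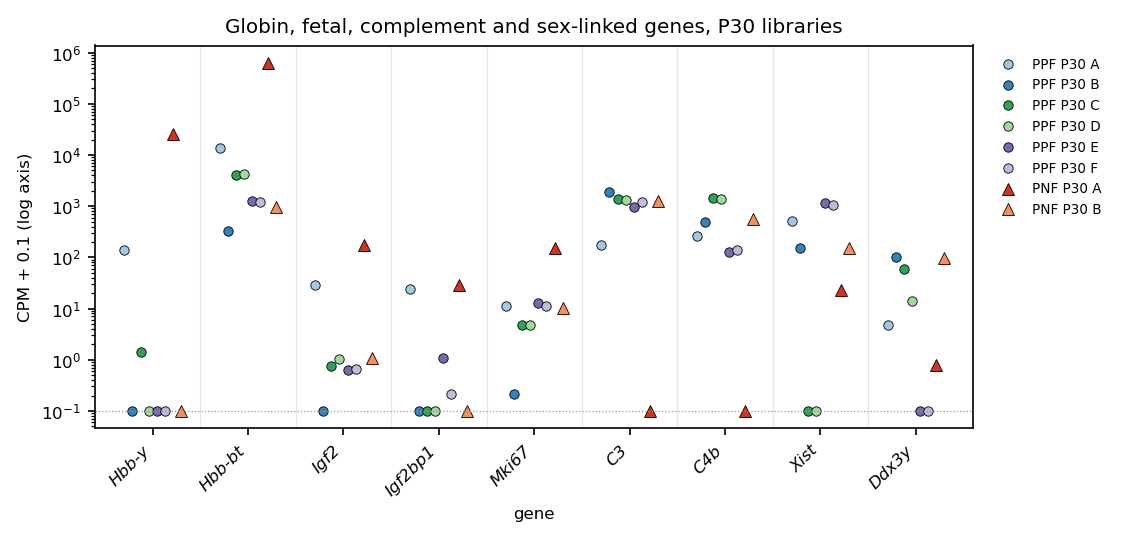
CPM + 0.1 on a log axis for 9 genes in each P30 library (circles PPF, triangles PNF; the dotted line marks 0 CPM). Hbb-y, Igf2 and Igf2bp1 are high in PNF A and PPF A and near 0 in the other libraries, and Xist and Ddx3y separate PPF C and D from E and F.

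The counts themselves limit which genes can be read. Protein-coding genes with several listed transcripts, under 10% of whose exon bases lie in a single transcript, numbered 1243 and held 0.25% of all gene counts, with a median of 3 counts over the 8 libraries. The 10251 other genes with several transcripts had a median of 124. Vim, an abundant filament gene of fibroblasts with 38.8% of its exon bases in 1 transcript, had 12 counts in all 8 libraries, and Sparc had 248 and Timp1 had 8. A level near 0 for such a gene does not show that the gene was silent, and levels are compared below between libraries and not between genes.

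At an adjusted p under 0.05 in edgeR's quasi-likelihood test, 1 of 15559 genes was higher in PPF (0.00643%) and 18 were lower (0.116%). These 19 are 0.122% of the genes. An unadjusted p under 0.05 was found for 1516 (9.74%), 437 on the higher and 1079 on the lower side. The gene that was higher was Plpp3, a phosphatase that degrades lysophosphatidic acid, and the mast cell proteases Cpa3 and Tpsb2 were among the lower genes. These 2 held in each fit without 1 library, and the other 17 lost the call without at least 1 of the 8. The median log2 fold change of all tested genes was 0.38 with all 8 libraries and 0.00 without PNF A, and it fell to 0.24 under upper quartile scaling, so the medians of gene lists below are read against it. With DESeq2, 94 genes were higher (0.604%) and 133 lower (0.855%). With limma voom and quality weights the counts were 1 (0.00643%) and 33 (0.212%). Counts were also simulated from each gene's mean over all 24 bulk libraries and its dispersion. The changes were placed only in genes averaging 10 CPM or more. Of 200 genes made to differ 4-fold 0 were called, and 118 of 200 at 16-fold.

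The count depended on single libraries. Without PNF A or PNF B the PNF group is 1 library, which is then assumed to vary like the other groups. Without PNF A, 0 genes were higher and 4 were lower (0.0257%): Cpa3, Tpsb2, Krt79 and Cd53. Without PNF B, so that PNF A alone stood for PNF, 2337 genes were higher (15%) and 445 lower (2.86%). Without both libraries titled A, 0 were higher and 7 lower (0.045%), and those 4 genes were among the 7. All 6 PPF libraries were above both PNF libraries for 487 genes (3.13%) and below both for 390 (2.51%). PNF B was above all 6 PPF libraries for 2535 genes (16.3%) and below them for 1217 (7.82%).

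**Figure D2:**
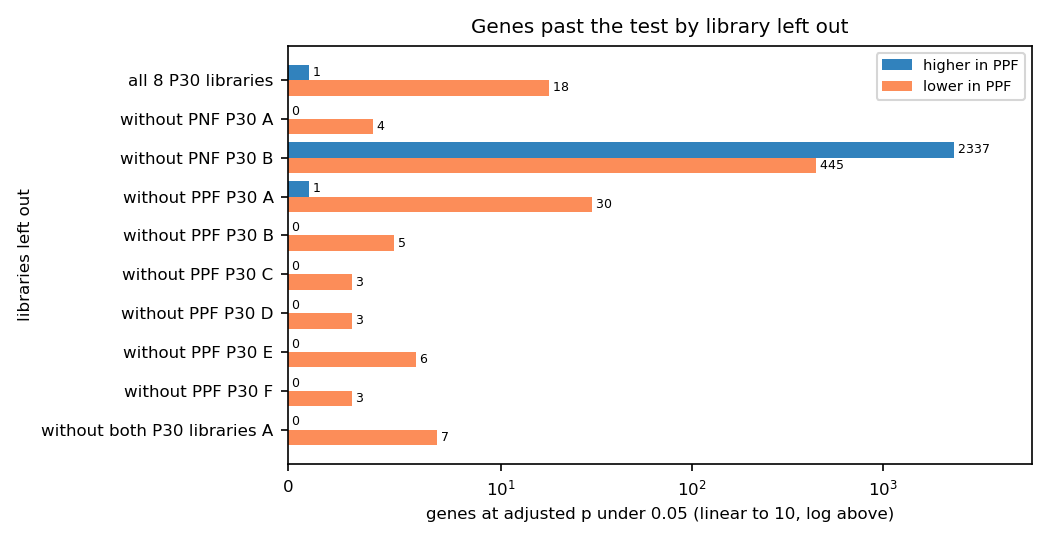
Number of genes past the test (horizontal axis, linear to 10 and logarithmic above) higher or lower in PPF, with all 8 P30 libraries and with the named libraries left out. The count is 1 higher and 18 lower with all libraries, 0 and 4 without PNF A, and 2337 and 445 without PNF B.

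Mast cell genes were low or at 0 in PPF. Mast cells are tissue-resident immune cells whose granules hold proteases, histamine and heparin. Cpa3 (carboxypeptidase A3, chr3:20215620-20242181) ranged in PPF from 0 to 1.33 CPM with a median of 0.248, and stood at 233.4 and 714.8 in PNF A and B. The groups did not overlap, and Cpa3 was 1257-fold higher in the PNF mean (log2 fold change -10.47 ± 1.22 SE, edgeR adjusted p = 0.000612). It passed in 19 of the 21 alternatives in which it was tested, each of the 8 fits without 1 library among them. It did not pass with libraries A and B only (adjusted p = 0.342) or with the replicate block (0.336). The fits without PNF A (0.000988) and without both libraries A (0.00588) rest on PNF B alone for that group.

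Tpsb2, tryptase beta 2 of mast cell granules (chr17:25366305-25369098), showed the same pattern at a lower level. It was at 0 in 4 PPF libraries, 0.128 in A and 0.332 in C, and at 23.51 and 121.7 CPM in PNF A and B. The groups did not overlap (log2 fold change -10.10 ± 1.33 SE, edgeR adjusted p = 0.00201), and it passed in 18 of 22 alternatives, each of the 8 fits without 1 library among them. It did not pass with the pairs C and D and E and F summed (adjusted p = 0.0946), with P30 libraries only in the fit (0.0513), with libraries A and B only (0.796) or with the replicate block (0.489). Its close paralog Tpsab1 could share its reads, and had 11 counts in all 8 libraries.

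Of the 9 mast cell genes tested, 2 were lower (0.116% of all genes), 0 were higher (0.00643%) and 7 did not pass. The median log2 fold change of the list was -4.47, and -5.56 without PNF A. PNF B was above all 6 PPF libraries for 9 of the 9, against 16.3% of all genes, and both PNF libraries were above PPF for 4, against 2.51%. PNF A was at 0 for 4 of the 9, against 60.6% of all genes. Of the 11 genes listed, 9 passed the filter on low counts, which a gene near 0 in PPF can pass through PNF libraries alone. PNF B was also the deepest P30 library (17190154 counts). The share over all genes is therefore not a like background, and these counts are a description. The same limit holds for the other-cell lists below. Hdc, which makes histamine, was at 52.81 and 57.15 CPM in PNF and at 0 to 12.76 in PPF (median 4.14), and did not pass (edgeR adjusted p = 0.188). Mcpt4, a chymase of connective tissue mast cells, was at 305.8 CPM in PNF B, 0 in PNF A and 0 to 9.63 in PPF. It did not pass either (adjusted p = 0.183). Summed, the list took 0.0216% and 0.202% of the counts of PNF A and B and 0 to 0.00366% in PPF. In bulk RNA, fewer cells of a type and less RNA per cell cannot be told apart.

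The upstream sequences of Cpa3 and Mcpt4 are shown because both genes carry a core of the GATA factors, a family that includes Gata2 of the mast cell lineage, and that of Plpp3 because it is the 1 gene that was higher. The 250 bases before each gene's start (RefSeq, GRCm38.p6) are printed 5′ to 3′ on the gene's strand, with GATAA or its reverse complement TTATC in capitals.
Cpa3 (chr3:20242182-20242431, minus strand): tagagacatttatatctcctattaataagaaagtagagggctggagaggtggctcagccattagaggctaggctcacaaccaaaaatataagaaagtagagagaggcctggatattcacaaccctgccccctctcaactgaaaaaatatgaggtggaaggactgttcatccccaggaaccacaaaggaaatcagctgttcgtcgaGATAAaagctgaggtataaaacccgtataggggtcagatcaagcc
Mcpt4 (chr14:56062311-56062560, minus strand): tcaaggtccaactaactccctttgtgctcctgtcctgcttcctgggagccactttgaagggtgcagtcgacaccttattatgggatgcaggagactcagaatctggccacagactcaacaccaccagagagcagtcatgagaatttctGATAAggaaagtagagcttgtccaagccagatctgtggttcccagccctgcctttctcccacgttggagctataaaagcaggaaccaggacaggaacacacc
Plpp3 (chr4:105157097-105157346, plus strand): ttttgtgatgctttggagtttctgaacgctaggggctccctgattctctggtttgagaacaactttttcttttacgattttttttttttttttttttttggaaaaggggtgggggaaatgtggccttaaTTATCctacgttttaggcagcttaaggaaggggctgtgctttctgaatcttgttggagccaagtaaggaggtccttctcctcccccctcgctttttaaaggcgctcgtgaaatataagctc
The core begins 45 bases before the start of Cpa3, 102 before that of Mcpt4 and 121 before that of Plpp3. At least 1 core was found in 6 of the 9 mast cell genes with an upstream sequence. Of the 11 listed, Tpsb2 and Tpsab1 had no sequence. A core was found in 22.6% of all 32851 windows of the same length. Kit and Gata2 have more than 1 window each, none with a core, so the count per gene is not a like measure to that share. A match is a description of these letters and not a site. Gata2 itself was at 4.43 and 2.62 CPM in PNF and at 0 to 0.769 in PPF.

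Plpp3 was the only gene called higher in PPF. It ranged there from 2326 to 4632 CPM with a median of 3258, and stood at 766.3 and 1168 in PNF A and B. All 6 PPF libraries were above both PNF libraries, and the mean was 3.49-fold higher (log2 fold change 1.80 ± 0.34 SE, edgeR adjusted p = 0.0423). The call was close to the threshold: it held without PNF B and without PPF A, and was lost without each of the other 6 libraries. The adjusted p was 0.380 without PNF A, where the log2 fold change was 1.47.

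Both Krt79 and Cd53 rested on PNF B. Krt79, a keratin of the hair follicle opening and sebaceous duct, was at 510.3 CPM in PNF B, at 0 in PNF A and at 0 to 4.39 in PPF (log2 fold change -7.99 ± 1.53 SE, edgeR adjusted p = 0.0423). Cd53, a tetraspanin of leukocytes, was at 48.82 CPM in PNF B and at 0 in the other 7 libraries (adjusted p = 0.0423). It was named after its values were seen. The PNF and PPF libraries overlapped for both, since PNF A was at 0. Of 14 hair follicle genes tested, Krt79 was the 1 called lower (0.116% of all genes), and 0 were higher (0.00643%). The list leaned the other way, with a median log2 fold change of 1.84, and 1.57 without PNF A. S100a3 was at 0 in PPF B, at 431.6 to 780.6 CPM in the other PPF libraries and at 0 and 0.609 in PNF (edgeR adjusted p = 0.184).

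Most other called genes were higher in PNF A than in PNF B. Ltf, the lactoferrin of neutrophil granules, was at 736.6 CPM in PNF A and 30.52 in PNF B, and at 0 in all 6 PPF libraries. Ltf was at least 5291-fold higher in PNF against a floor of 3 counts over the PPF group (edgeR adjusted p = 0.0388). Without PNF A that bound was 421-fold and the adjusted p was 0.185. Ctsg, the granule protease cathepsin G, was at 63.71 and 5.10 CPM in PNF and 0 in PPF, at least 475-fold higher in PNF, or 70.4-fold from PNF B alone (adjusted p = 0.0423, and 0.212 without PNF A). Stfa1, a cystatin abundant in neutrophils, was at 901.5 and 5.90 CPM in PNF and at 0 to 0.664 in PPF (adjusted p = 0.00433, and 0.299 without PNF A). Its near-identical relatives, the called gene Gm5483 among them, could share its reads. These genes are in none of the lists.

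S100a8 and Ngp, further neutrophil genes, were high in PNF A alone. S100a8 was at 2290 CPM in PNF A, 10.72 in PNF B and 4.22 to 18.26 in PPF, and Ngp was at 1098, 0.234 and 0 to 1.92 in the same order. PNF B lay inside the PPF range for both, and without PNF A their log2 fold changes were -0.06 and 1.36 with adjusted p of 1.00. Of the 7 genes of the neutrophil list that were tested, these 2 were lower (0.116% of all genes) and 5 did not pass. In PNF A, 4 of the 7 were at 0 (60.6% of all genes), and the median log2 fold change was -0.07.

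Both Actc1 and Sox10 were also called. Actc1, cardiac actin, was at 252.8 and 48.96 CPM in PNF and at 0 in the 6 PPF libraries, at least 2081-fold higher in PNF, or 675-fold from PNF B alone (edgeR adjusted p = 0.0388, and 0.182 without PNF A). Sox10, a factor of neural crest, Schwann cells and melanocytes, was at 6.47 and 3.51 CPM in PNF and 0 in PPF, at least 68.9-fold higher in PNF (adjusted p = 0.0423, and 0.182 without PNF A). It was the 1 gene called among 13 Schwann and neural genes, and the 1 among 6 melanocyte genes, against 0.116% of all genes called lower. Gpr18, Rph3al, Ccdc184 and Col26a1 were at 23.51 to 106.3 CPM in PNF A, at 0.187 to 1.40 in PNF B and at most 0.256 in PPF, with adjusted p of 0.0423 to 0.0444.

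**Figure D3:**
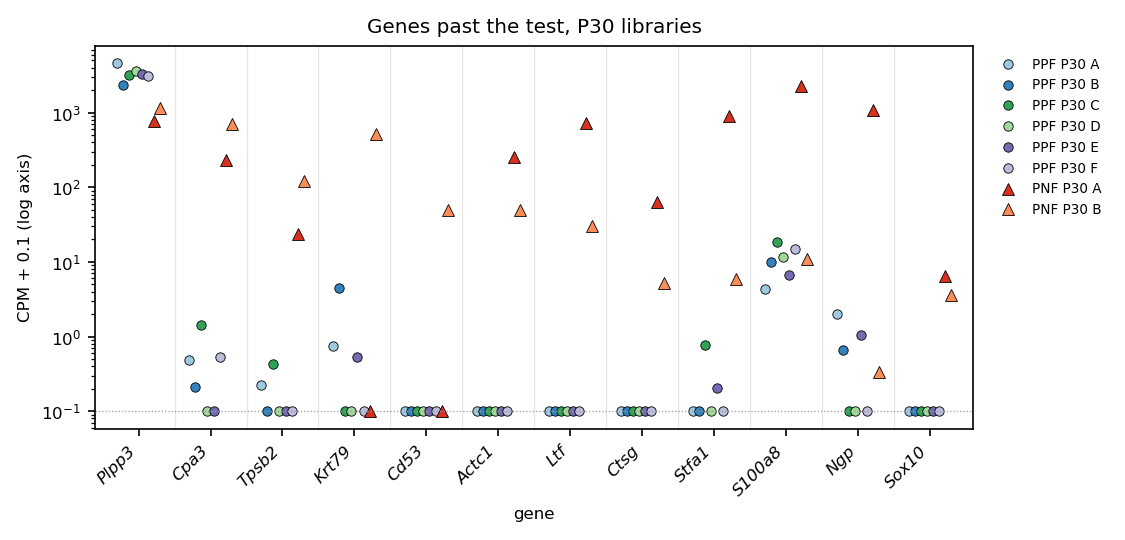
CPM + 0.1 on a log axis for 12 of the 19 genes past the test in each P30 library (circles PPF, triangles PNF; the dotted line marks 0 CPM). Plpp3 is higher in all 6 PPF libraries, Cpa3 and Tpsb2 are higher in both PNF libraries, Krt79 and Cd53 are high in PNF B, and S100a8 and Ngp are high in PNF A.

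Of the 18 keratinocyte genes, 0 passed in edgeR with all libraries. An unadjusted p under 0.05 was found for 9, all on the lower side, against 9.74% of all genes (1079 of 15559 on that side). DESeq2 called 5 lower (0.855% of all genes) and limma voom 0 (0.212%). Both PNF libraries were above all PPF libraries for 6 (2.51% of all genes). PNF B was above them for 13 (16.3%) and within their range for 5, and PNF A was at 0 for 5 (60.6%). Krtdap, a secreted protein of suprabasal keratinocytes, was at 2967 and 1615 CPM in PNF and at 5.86 to 99.27 in PPF (median 26.79; edgeR adjusted p = 0.0569). The suprabasal keratins Krt1 and Krt10 stood at 1014 and 2196 CPM and at 707.3 and 1166 in PNF, against 0.338 to 35.19 and 20.96 to 82.87 in PPF (adjusted p = 0.110 and 0.0941). Krt15, a keratin of basal cells, was at 51.79 and 392.0 CPM in PNF and at 4.93 to 11.04 in PPF (adjusted p = 0.109). The list took 0.487% and 1.26% of counts in PNF and 0.0141% to 0.297% in PPF, and PPF A was the highest PPF library.

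Of the 8 macrophage and dendritic cell genes tested, PNF B was above all PPF libraries for 6 (16.3% of all genes). Both PNF libraries were above them for 3 (2.51%), while PNF A was at 0 for 4 (60.6%). Fcer1g, a signalling chain of Fc receptors, was at 100.9 and 25.09 CPM in PNF, and at 2.66, 1.85 or 0 in PPF (edgeR adjusted p = 0.0718). Tyrobp, an adaptor of myeloid receptors, was at 174.1 and 23.97 CPM in PNF and at 0 to 8.22 in PPF (adjusted p = 0.110). Lyz2, a lysozyme, was at 1280 and 94.6 CPM in PNF and at 0.309 to 86.95 in PPF (adjusted p = 0.282). The macrophage complement gene C1qb was at 16.15 CPM in PNF B and at 0 in the other 7 libraries. In this list, 0 of 8 genes passed in edgeR, 5 had an unadjusted p under 0.05 (9.74% of all genes), and DESeq2 called 3 lower (0.855%) and limma voom 2 (0.212%). Ptprc, Cd74, Aif1 and Itgam were at 0 in all 8 libraries, and Cd74 has 0.424% of its exon bases in a single transcript.

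Of 10 skeletal muscle genes 0 passed in edgeR, 4 had an unadjusted p under 0.05 (9.74% of all genes), and 2 were lower by DESeq2 (0.855%) and 0 by limma voom (0.212%). Myod1, the muscle-determining factor, was at 40.2 and 12.92 CPM in PNF and at 0 or 0.220 in PPF (edgeR adjusted p = 0.108). PNF B was above all 6 PPF libraries for 8 of 10 skeletal muscle and 7 of 13 Schwann genes. The count was 6 of 10 T and NK cell, 4 of 10 endothelial and 0 of 9 adipocyte genes (16.3% of all genes). Both PNF libraries were above PPF for 1, 2, 1, 1 and 0 genes of these lists in that order (2.51% of all genes). PNF A was at 0 for 8, 6, 8, 7 and 6 (60.6%). T and NK cell genes took 0.0144% of counts in both PNF libraries and 0.00478% to 0.0236% in PPF.

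Summed shares of 15 other-cell lists were compared over the 8 libraries with a two-sided exact permutation test, whose smallest possible p is 0.0714. Keratinocyte, mast cell, macrophage and endothelial shares reached it, with PNF above PPF in both libraries, and the adjusted p over the 15 lists was 0.268. Endothelial genes took 0.00959% and 0.0137% of counts in PNF and 0.00262% to 0.00713% in PPF. The part of such cells in the gene differences was not tested.

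The fibroblast genes themselves did not pass in edgeR with all libraries. Of 396 genes in the fibroblast, position and state lists, 0 passed in edgeR. An unadjusted p under 0.05 was found for 46 on the higher and 18 on the lower side (16.2%, against 9.74% of all genes). Of all 15559 genes, 437 were on the higher and 1079 on the lower side. By DESeq2, 10 of the 396 were higher (0.604% of all genes) and 2 were lower (0.855%). By limma voom, 0 were higher (0.00643%) and 2 were lower (0.212%). Prrx1 was at 22.55 to 132.6 CPM in PPF (median 56.01), 0 in PNF A and 60.85 in PNF B, which lies within the PPF range (log2 fold change 1.16 ± 1.05 SE, edgeR adjusted p = 0.802).

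Fibrillar matrix genes varied widely within PPF. Col1a1, a chain of type I collagen, was at 1408 CPM in PPF A and at 124700 and 103200 in C and D, with a PPF median of 29970, and at 1231 and 8702 in PNF. PNF A lay just below the lowest PPF library and PNF B within the PPF range (log2 fold change 3.33 ± 1.31 SE, edgeR adjusted p = 0.389). Eln (elastin) was at 5502 and 5195 CPM in PPF C and D, 430.7 to 1476 in the other 4 and 255.2 and 524.1 in PNF (adjusted p = 0.242). Of the 20 genes of this list, 4 had an unadjusted p under 0.05 (3 higher and 1 lower; 9.74% of all genes), and the median log2 fold change was 1.17, falling to 0.62 without PNF A.

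Genes that process collagen gave a higher median. Its 16 members had a median log2 fold change of 1.68, and of 1.12 without PNF A, and 4 had all PPF libraries above both PNF libraries (3.13% of all genes). PNF A was at 0 for 5 of the 16 (60.6% of all genes). Adamts2, the procollagen N-proteinase, was at 1810 to 7892 CPM in PPF (median 2579) and at 47.7 and 1121 in PNF, so that the groups did not overlap. It did not pass (log2 fold change 2.79 ± 0.90 SE, edgeR adjusted p = 0.247, and 0.963 without PNF A). Plod1, a lysyl hydroxylase of collagen, was at 1583 and 1390 CPM in PPF C and D and at 228.1 to 426.4 in the other 4, against 90.29 and 257.4 in PNF.

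Of the 19 proteases and inhibitors, all PPF libraries were above both PNF libraries for 4 (3.13% of all genes) and below both for 0 (2.51%). PNF B was above all PPF libraries for 4 (16.3%) and below them for 4 (7.82%). An unadjusted p under 0.05 in edgeR was found for 5 on the higher and 0 on the lower side. Of all 15559 genes it was found for 437 and 1079 (9.74% in all). Mmp2, a gelatinase, was at 4953 to 17600 CPM in PPF (median 6897) and at 698.1 and 4126 in PNF (log2 fold change 1.99 ± 0.72 SE, edgeR adjusted p = 0.321). Timp2, its inhibitor and activator partner, was at 4744 to 13880 CPM in PPF (median 6535) and at 553.3 and 4403 in PNF (adjusted p = 0.436). PNF B was just below the lowest PPF library for both. Mmp14, a membrane protease that activates Mmp2, was at 3518 CPM in PNF B, above the 1998 to 2980 of PPF, and at 322.3 in PNF A (adjusted p = 0.894). Timp3, a matrix-bound inhibitor, was likewise at 1072 CPM in PNF B and 115.8 in PNF A, against 343.7 to 686.7 in PPF (adjusted p = 0.931). Both were named after their values were seen. Ctsl, a lysosomal protease, was at 896.3 to 1676 CPM in PPF and at 90.97 and 480.6 in PNF (log2 fold change 2.09 ± 0.50 SE, adjusted p = 0.109, and 0.642 without PNF A).

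Reticular and fascia genes had a median log2 fold change of 2.06 over 15 genes and of 1.60 without PNF A, and 5 had all PPF libraries above both PNF libraries (3.13% of all genes). PNF A was at 0 for 7 of the 15 (60.6% of all genes), and PNF B was above all PPF libraries for 2 (16.3%). Gpx3, a secreted glutathione peroxidase, was at 1989 to 18910 CPM in PPF (median 3919) and at 126.4 and 872.3 in PNF. PPF C and D, at 18720 and 18910, were above all other libraries, and the difference did not pass (log2 fold change 4.05 ± 1.05 SE, edgeR adjusted p = 0.129). Ly6a, the surface protein Sca-1, was at 1567 to 13070 CPM in PPF (median 4979) and at 0.681 and 1442 in PNF, with PNF B below the lowest PPF library (adjusted p = 0.430). Ackr3, a scavenging chemokine receptor, was at 71.17 to 721.5 CPM in PPF and at 35.43 and 116.0 in PNF, and the groups overlapped.

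Papillary genes had a median log2 fold change of 0.05 over 11 genes. Those of the dermal papilla reached 2.34 over 9 genes, of which 8 were at 0 in PNF A (60.6% of all genes), and 1.34 without that library. Wif1, a secreted Wnt inhibitor, was at 3584 and 3379 CPM in PPF E and F, at 213.0 to 527.3 in the other 4 and at 168.7 and 162.5 in PNF (log2 fold change 3.10 ± 1.03 SE, edgeR adjusted p = 0.267). Hhip, a Hedgehog inhibitor, was at 1297 and 1331 CPM in E and F, at 44.04 to 182.9 in the other 4 and at 0 and 63.47 in PNF. Alpl, the alkaline phosphatase used to mark the papilla, was at 510.7 and 429.9 CPM in E and F and at most 80.02 in any other library. Col1a1, Eln and Gpx3 were thus highest in PPF C and D and Wif1, Hhip and Alpl in E and F, while Dcn was highest in PPF B (4165 CPM). These pairs also differed in Xist and Ddx3y, and the part of sex in these values was not tested.

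Of 24 Wnt genes, 4 had all PPF libraries above both PNF libraries (3.13% of all genes) and 1 below (2.51%), with a median of 0.59. Sfrp1, which binds Wnt ligands, was at 119.6 to 1236 CPM in PPF (median 358.9) and at 7.16 and 88.56 in PNF (edgeR adjusted p = 0.341). Of 17 TGF-beta genes, 0 were apart in either direction, 0 passed in edgeR, 0 had an unadjusted p under 0.05, and DESeq2 and limma voom called 0. Their median was 0.95, and 0.02 without PNF A. The 18 contractile genes had a median of -0.02.

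**Figure D4:**
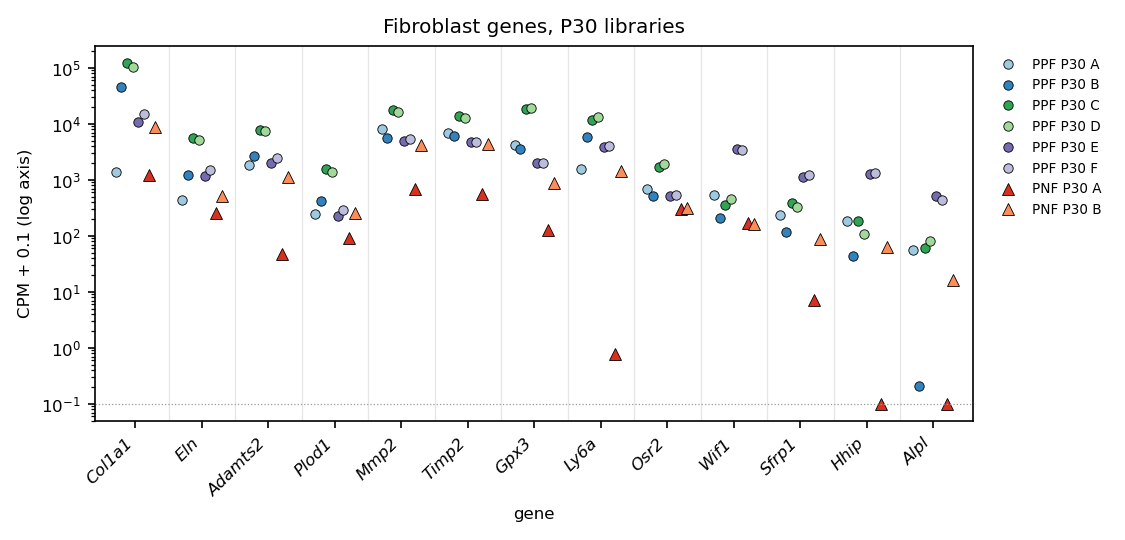
CPM + 0.1 on a log axis for 13 fibroblast genes in each P30 library (circles PPF, triangles PNF; the dotted line marks 0 CPM). Col1a1, Eln, Plod1, Gpx3 and Osr2 are highest in PPF C and D, and Wif1, Sfrp1, Hhip and Alpl are highest in PPF E and F.

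Of 13 HOX genes of groups 9 to 13, which mark the posterior trunk and limbs, 0 passed in edgeR. An unadjusted p under 0.05 was found for 2 on the higher and 1 on the lower side (9.74% of all genes). DESeq2 called 1 higher (0.604% of all genes) and limma voom 0 (0.00643%). All PPF libraries were above both PNF libraries for 3 (3.13% of all genes), and 10 were at 0 in PNF A (60.6%). The median log2 fold change was 1.56, and 1.45 without PNF A and 0.93 without both libraries A. Hoxc9 was at 33.79 to 88.67 CPM in PPF (median 72.09) and at 24.19 and 15.68 in PNF (log2 fold change 1.72 ± 0.60 SE, edgeR adjusted p = 0.311). Hoxb9 was at 14.42 to 48.2 CPM in PPF, 159.1 in PNF A and 2.81 in PNF B, so that its log2 fold change was -1.70 with all libraries and 3.07 without PNF A. The 21 genes of groups 1 to 8 had a median of 0.37, and the difference between the groups of HOX genes was not tested.

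Of 26 lineage factors, 4 had all PPF libraries above both PNF libraries (3.13% of all genes) and 0 below (2.51%). Osr2, a zinc finger factor of limb and body wall mesenchyme, was at 511.4 to 1906 CPM in PPF (median 616.6) and at 301.2 and 309.5 in PNF, and the groups did not overlap (log2 fold change 1.69 ± 0.59 SE, edgeR adjusted p = 0.311). Pax3, a factor of muscle precursors and melanocytes, was at 22.7 CPM in PNF B and at 0 in the other 7 libraries (adjusted p = 0.108). Hand2 was at 287.9 CPM in PNF A, 6.65 in PNF B and 12.05 to 36.77 in PPF. Its log2 fold change was -2.42 with all libraries and 1.98 without PNF A.

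Further genes were apart on the higher side with a small p and did not pass. Nbl1, a secreted BMP antagonist, was at 1418 to 3962 CPM in PPF (median 2658) and at 210.2 and 879.3 in PNF (edgeR adjusted p = 0.129). Aebp1, which binds collagen, was at 982.9 to 2503 CPM in PPF (median 1280) and at 45.31 and 425.7 in PNF (adjusted p = 0.137). Mt2, a metallothionein, was at 223.2 to 1503 CPM in PPF (median 926.9) and at 111.8 and 162.7 in PNF (adjusted p = 0.131). These 3 genes, with S100a6, Cavin1, Pnp, Ubqln2 and Chmp4b, had adjusted p of 0.119 to 0.168 with all libraries and of 0.732 to 0.851 without PNF A. Lars2, a mitochondrial leucyl-tRNA synthetase, was at 8948 to 105700 CPM in PPF and at 6357 and 1433 in PNF, with PNF A the higher of the PNF libraries (adjusted p = 0.147).

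**Figure D5:**
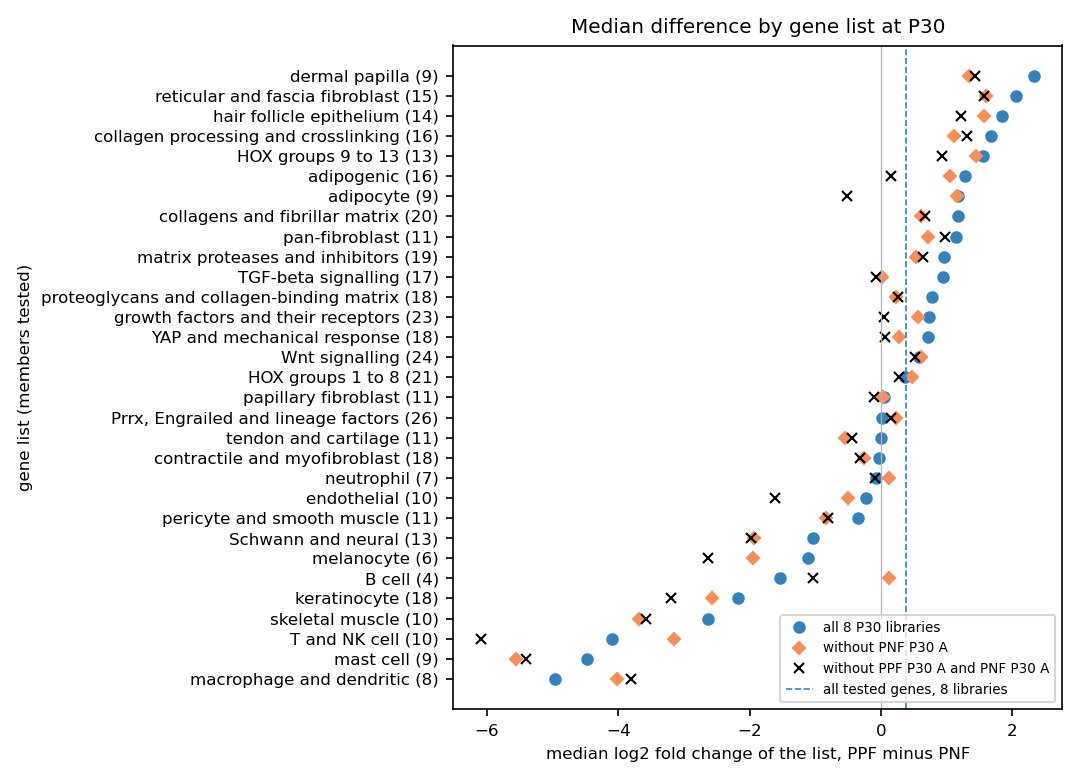
Median log2 fold change of each gene list, PPF minus PNF (horizontal axis), with all 8 P30 libraries, without PNF A, and without both libraries titled A; the number of tested members is in brackets and the dashed line is the median of all genes. Mast cell, macrophage, T and NK cell, muscle and keratinocyte lists lie below -2 with all 8 libraries, and reticular and fascia and dermal papilla lists lie above 2.

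Whether the P30 difference itself departed from that at the 3 earlier ages was tested as an interaction over all 24 libraries. In edgeR 0 of 15559 genes passed (0%), with 1211 at an unadjusted p under 0.05 (7.78%), while by DESeq2 261 were higher and 47 lower, and by limma voom 0 and 5. For Gpx3 the P30 difference exceeded the earlier mean by 6.48 on the log2 scale (unadjusted p = 4.39e-05, edgeR adjusted p = 0.228), and for Plpp3 by 1.37 (0.00157 and 0.610). Cpa3 had an adjusted p of 1.00 for this difference. The test had little to work on for genes at 0 in a whole group, where 1579 genes had an F statistic under 0.001.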

How the data were processed

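RNA was taken from flow-sorted ventral skin fibroblasts, and cDNA was amplified from a low input and read in pairs, per the labels' protocols. The authors deposited whole-number counts per transcript, made with featureCounts per the file names, on mm10 per the submitters' processing notes. The sources used here do not name the aligner. No molecular identifiers were used, so precision from counts covers counting error only. Each table lists 95883 transcripts, of which 82946 were found in GENCODE vM21 and summed to 34030 genes. Transcripts not found held 5.253% of counts and were left out. Coordinates are those of GENCODE vM21 (GRCm38, the mm10 assembly).

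All 24 bulk libraries in 8 groups were fitted together with edgeR 4.0.16 (R 4.3.3): filterByExpr, TMM scaling and quasi-likelihood F tests, two-sided, with Benjamini-Hochberg adjustment over 15559 genes and a threshold of 0.05. Residual degrees of freedom were 16, prior degrees 5.06 and the common BCV 1.029. The interaction took the P30 difference minus the mean difference of the 3 earlier ages. The P30 comparison was run on simulated counts, and the interaction was not. Gene counts at P30 ran from 4264657 to 17190154 per library, and TMM factors from 0.654 to 1.245. DESeq2 1.42.0, limma 3.58.1, other scalings and filters, and fits without libraries served as alternatives. The 2 single-cell pools were not used.

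Genes named are up to 12 per direction whose groups did not overlap and whose higher group averaged 10 CPM or more, up to 4 per list by unadjusted p, and Prrx1. Others were chosen after their values were seen. The members and the 40 gene lists were chosen with earlier results of these data known, and 2 lists (embryonic globins, fetal genes) were added later.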

Additional observations from a re-analysis of the deposited data

Results flagged for a closer look

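A library was marked where its gap to the nearest of the other PPF libraries exceeded Dixon's 95% limit. Over the 6 PPF libraries, 18 of 102 values were marked, and 9 of the 18 were PPF A. The limit marks about 1 in 20 of independent, normally spread values. A gene with counts in 1 PPF library and 0 in the others is always marked, and list shares and genes are not independent. The 18 is thus not a measure of excess. PPF A was high in the summed share of erythroid genes (1.79% of counts), embryonic globins (0.0178%), growth factors and their receptors (1.72%), hypoxia and glycolysis genes (0.385%), keratinocyte genes (0.297%) and tendon and cartilage genes (0.261%). It was also high in Tgfbr3, a TGF-beta co-receptor (486 CPM, next highest 238) and Rph3al (0.256), and low in Krt10 (21.0, next lowest 66.4).

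PPF B was marked for Dcn, a matrix proteoglycan, at 4170 CPM, for Krt79 at 4.39 and for Tyrobp at 8.22. It also held the counts of Gpr18 (0.225 CPM) and Ccdc184 (0.113) that the other 5 PPF libraries lacked. PPF C was marked for Cpa3 at 1.33 CPM and Stfa1 at 0.664, and PPF F for Myod1 at 0.220 and Col26a1 at 0.110. The values of Stfa1, Ccdc184, Gpr18, Col26a1, Rph3al and Myod1 are of a few counts each.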

How the results depend on the processing

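Genes higher in PPF numbered 1 with all libraries, 6 under upper quartile scaling, 3 without the filter on low counts, 94 in DESeq2 and 0 to 2337 with each library left out. They numbered 0 without the 2 erythroid-rich libraries, without both libraries A, with C and D and E and F summed, with P30 libraries only in the fit, with libraries A and B only, with the replicate block and with transcripts of equal length only. Genes lower in PPF numbered 18, and 8 under RLE size factors, 309 under upper quartile scaling, 141 without the filter, 133 in DESeq2, 33 in limma voom, and 3 to 445 with each library left out. They numbered 6 without the erythroid-rich libraries, 7 without both A, 9 with equal-length transcripts, and 1 with the pairs summed (Cpa3), with P30 libraries only (Cpa3), with A and B only (Klk8) and with the replicate block (Klk8). The interaction called 0 and 0, and 1 and 1 without the filter, 261 and 47 in DESeq2, 2 lower under upper quartile scaling, 5 lower in limma voom, 0 to 2419 higher and 0 to 226 lower with each library left out. The cause was not tested.

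The titles give same-lettered PPF and PNF libraries no link beyond the letter. Their deviations from the group mean correlated at 0.00752 (A) and 0.0299 (B). These values cannot decide the pairing, because with 2 PNF libraries the deviations of PNF A and B are mirror images. Both libraries A were high in Igf2 and Igf2bp1. Both libraries B held Xist (152.0 and 152.5 CPM) and Ddx3y (102.9 and 95.54) at similar levels. Whether the replicate block pairs related libraries is not known.

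Log2 fold changes that changed sign were, without PNF A, without the erythroid-rich libraries and without both A, Ngp (1.36, 1.40 and 0.59), Hand2 (1.98, 2.03 and 1.94) and Hoxb9 (3.07, 3.13 and 3.0). Their lowest values with each library left out were -10.58, -3.29 and -2.59. In limma voom, Hand2 (1.63) and Hoxb9 (2.53) also changed sign. S100a8 reached 0.00 and 0.10 without the erythroid-rich libraries and without both A. With each library left out, Krt79 ran from -9.92 to 5.97, Mcpt4 from -6.72 to 7.58, C1qb from -10.18 to 0.00, Cd53 from -11.77 to 0.00 and Pax3 from -10.67 to 0.00, the upper end without PNF B. Mmp14 was at -0.57, -0.50 and -0.56 without PNF A, the erythroid-rich libraries and both A, at -0.43 in limma voom and at up to 3.04 without PNF B. Timp3 ran from -1.16 to 2.21 with each library left out and was at 0.06 with the replicate block. Col5a1 was at -0.03 with A and B only and -0.08 with the replicate block. Differences in share of counts (PPF minus PNF, percentage points) that changed sign with each library left out were erythroid (-46.3 to 0.282), pericyte and smooth muscle (-0.0819 to 0.0294), Schwann and neural (-0.0488 to 0.0108), melanocyte (-0.0417 to 0.0105), skeletal muscle (-0.0204 to 0.00416), T and NK cell (-0.000795 without PPF E and -0.000357 without PPF F, to 0.00297) and tendon and cartilage (-0.0228, and -0.00437 without PPF A, to 0.0767). Without both A, erythroid was at 0.0149, hair follicle at -0.00717 and tendon and cartilage at -0.0541. As shares outside the erythroid list, T and NK cell was at -0.00543 and adipocyte at -0.00102.

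In simulated counts 0 of 200 changes of 4-fold were called, while Plpp3, at 3.49-fold, was.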
